A study of Mus musculus with 48 samples.

Results

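The contractile genes of arterial smooth muscle were followed in bulk RNA-seq of the mouse substantia nigra (SN): Acta2, Myh11, Myl9, Tpm2, Cnn1, Tagln and Des, 7 of the 19601 protein-coding genes in the batch-corrected tables, chosen by gene symbol as standard markers of contractile smooth muscle. The libraries came from male C57BL/6J mice that received a unilateral injection of mouse α-synuclein into the right striatum at an age of 121 days, either as preformed fibrils (PFF) or as monomer, the control injection. The mice were kept at 21% O2 or at 11% O2, and the SN was taken 90 to 98 days after the injection. The 4 groups held 12 mice each, and the authors left out 6 of the 48 mice after a principal components analysis. The analysed groups were therefore monomer at 21% O2 (n = 11), PFF at 21% O2 (n = 12), monomer at 11% O2 (n = 9) and PFF at 11% O2 (n = 10). When 11% O2 began differs between the sources. The series' design text places it midway between injection and harvest, and the labels' protocol and the paper's account of this experiment place it just after recovery from the injection. No group was left uninjected, and the dissected SN holds neurons, glia and vessels together, so that fewer cells of a type and less RNA per cell cannot be told apart.

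Contraction of vascular smooth muscle runs on a thin filament of smooth muscle α-actin (Acta2), decorated with tropomyosin (Tpm2), calponin (Cnn1) and transgelin (Tagln), which is pulled by smooth muscle myosin, made of a heavy chain (Myh11) and a regulatory light chain (Myl9). Phosphorylation of the light chain by myosin light chain kinase (Mylk) switches the motor on, and desmin (Des) filaments tie the contractile apparatus together. In brain these genes are used as markers of the smooth muscle cells around arteries and arterioles. Acta2 and Myl9 are also found at lower levels in some pericytes, and Tpm2 in many other cell types. The transcription of most of them is driven by serum response factor, which binds the CArG box, together with the cofactor myocardin.

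The 42 analysed libraries held 12902996 to 17120921 counts on genes. They were harvested in 3 batches named in the labels, and the batches did not cross the groups evenly. Monomer mice at 21% O2 came from batches 1 (n = 4) and 2 (n = 7), and monomer mice at 11% O2 from batches 1 (n = 4) and 3 (n = 5), so that monomer mice of the 2 oxygen levels meet in batch 1 alone. Among monomer mice at 11% O2, 3 mice of batch 3 (replicates 6, 10 and 11) stood apart: their summed TPM of pericyte, endothelial or leptomeningeal fibroblast markers lay over 3 scaled median absolute deviations above the median of all 48 mice. Replicate 11 was also the only mouse taken 98 days after the injection, and the other mice of batch 3 were taken at 91 days. The results on the contractile genes that rest on these mice are given with and without them, an alternative chosen after seeing the data. Dopaminergic markers were present in every library, with Th between 96.1 and 1079 TPM and Slc6a3 between 263 and 1932 TPM. The marker set of smooth muscle was present at low level. Carmn, the noncoding RNA of smooth muscle, had 0 to 15 counts per mouse before correction, with a median of 0.406 TPM.

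By level per transcript length, Myl9 (31.7 TPM) and Tpm2 (31.6 TPM) had the highest medians over the 42 mice. Acta2 followed at 8.85 TPM and Myh11 at 3.00 TPM, while Des (1.53 TPM), Tagln (0.832 TPM) and Cnn1 (0.620 TPM) lay near or under 1 TPM. In counts after correction this meant a median of 71 for Acta2, 82.5 for Myh11, 135.5 for Myl9, 335.5 for Tpm2 and 22 for Des, but only 6 each for Tagln and Cnn1. Tagln and Cnn1 did not pass the filter on low counts, and 5 of the 7 genes were tested. TPM, a level per transcript length and library size, was computed by the authors from the batch-corrected counts. The lowest counts are thus too small for a change in Tagln or Cnn1 to be read with the precision of the other 5 genes.

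On GRCm38, Acta2 (ENSMUSG00000035783.9) lies at chr19:34241090-34255590 on the minus strand, Myh11 (ENSMUSG00000018830.10) at chr16:14194535-14291372 on the minus strand and Myl9 (ENSMUSG00000067818.6) at chr2:156775420-156781658 on the plus strand. Tpm2 (ENSMUSG00000028464.16) lies at chr4:43514711-43523765 on the minus strand and Des (ENSMUSG00000026208.9) at chr1:75360329-75368579 on the plus strand. Cnn1 (ENSMUSG00000001349.5) at chr9:22099216-22109630 on the plus strand and Tagln (ENSMUSG00000032085.5) at chr9:45929619-45936058 on the minus strand share chromosome 9. Of the 1988 exon bases of Tagln, 67.86% overlap exons of genes on the opposite strand, 1241 bases being exons of the antisense gene Gm48529. Reads were counted without regard to strand, and no option that counts a read for several genes is listed. Reads over these bases may thus be lost to both Tagln and Gm48529 (2 to 18 counts per mouse). The level of Tagln is therefore uncertain and may be too low. For Des the shared part was 220 of 3754 bases (5.86%), and the exons of the other 5 genes overlapped no other gene.

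The 250 bases upstream of the RefSeq start site (GRCm38.p6) were available for 5 of the 7 genes and are shown for the pair that moved in the comparison of oxygen levels and for Tpm2, which was not called. Capitals mark CArG boxes, searched on both strands with at most 1 of the 6 middle letters being C or G. All are written 5′ to 3′ along the gene. The RefSeq start sites of these 3 genes lie inside the GENCODE spans given above, by 44 bases for Myl9 and more for the others, so that the windows reach into the genes as GENCODE draws them.
Acta2, chr19:34255374-34255623, minus strand: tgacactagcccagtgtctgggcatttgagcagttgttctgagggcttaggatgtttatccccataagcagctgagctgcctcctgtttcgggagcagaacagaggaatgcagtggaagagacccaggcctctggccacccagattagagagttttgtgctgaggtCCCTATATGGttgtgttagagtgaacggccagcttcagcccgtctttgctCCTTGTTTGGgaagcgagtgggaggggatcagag
Myl9, chr2:156775214-156775463, plus strand: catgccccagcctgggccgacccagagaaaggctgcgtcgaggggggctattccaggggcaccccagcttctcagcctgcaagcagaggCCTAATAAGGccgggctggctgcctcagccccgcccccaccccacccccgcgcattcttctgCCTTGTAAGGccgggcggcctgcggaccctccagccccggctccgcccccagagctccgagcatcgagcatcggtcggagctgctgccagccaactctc
Tpm2, chr4:43523555-43523804, minus strand: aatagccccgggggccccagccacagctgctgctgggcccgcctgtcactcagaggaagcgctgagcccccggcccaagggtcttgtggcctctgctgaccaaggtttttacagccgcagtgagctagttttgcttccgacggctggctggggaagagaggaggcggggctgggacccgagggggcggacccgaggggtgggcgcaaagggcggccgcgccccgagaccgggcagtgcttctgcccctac
Myl9 held an exact CArG box at -161 to -152 and a match with 1 changed letter at -99 to -90, counted from the start site. Acta2 held 2 matches with 1 changed letter, at -84 to -75 and -34 to -25. The windows of Tpm2, Des and Cnn1 held none. Among all 32851 promoters of the table, 1.467% held an exact box and 8.593% held a match with at most 1 changed letter. These are matches of letters and not measured binding.

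Breathing 11% instead of 21% O2 was first compared in monomer mice, which asks what hypoxia does to the contractile genes without fibrils. Acta2 and Myl9 were higher at 11% O2 and passed the test, the smooth muscle actin by 1.51 and the myosin light chain by 0.67 on the log2 scale. Myh11 (0.77), Des (0.51) and Tpm2 (0.06) did not pass it. Without the 3 mice standing apart neither gene passed, though both log2 fold changes stayed positive. Most pericyte and endothelial markers, used to set these mice apart, were themselves called higher at 11% O2. Their sums also correlated with Acta2 and Myl9 across mice. Leaving these mice out therefore lowers both the fold changes and the group size. It cannot show whether the higher levels rested on part of the group.

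Acta2 had a lowest, median and highest level of 2.63, 7.04 and 11.2 TPM in monomer mice at 21% O2. In monomer mice at 11% O2 the same values were 0.577, 19.5 and 56.8 TPM, with means ± SD of 6.95 ± 2.46 (n = 11) and 19.7 ± 17.3 (n = 9). The groups overlapped at both ends: 5 of the 9 mice at 11% O2 lay above every monomer mouse at 21% O2, and 2 lay below all of them. Those 2, replicates 5 and 7, stood at 6.64 and 9.92 TPM before batch correction. The monomer mice at 21% O2 then spanned 3.90 to 9.75 TPM, so neither lay below them. The lowest mouse at 11% O2 before correction was replicate 3, at 3.24 TPM. The fold change was 1.51 (SE 0.461) on the log2 scale, with an adjusted p of 0.0232. The highest level of all 42 mice, 56.8 TPM in monomer replicate 10 at 11% O2, was 6.42 times the median, and replicates 6 (31.1 TPM) and 11 (26.7 TPM) came next among the monomer mice.

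Myl9, which carries the phosphorylation site that starts contraction, spanned 22.2 to 35.0 TPM in monomer mice at 21% O2, with a median of 24.8 TPM. At 11% O2 it spanned 20.3 to 68.2 TPM with a median of 45.6 TPM. Again 5 of the 9 mice exceeded every mouse at 21% O2 and 2 lay below all of them, and the 3 highest of all 42 mice were replicates 10 (68.2 TPM), 11 (58.2 TPM) and 6 (57.1 TPM). Before batch correction no analysed monomer mouse at 11% O2 lay below those at 21% O2. The lowest levels were then 21.3 TPM at 11% O2 and 17.2 TPM at 21% O2. The fold change was 0.67 (SE 0.161), with an adjusted p of 0.00394.

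Myh11, the myosin heavy chain whose expression is most restricted to smooth muscle, went from a median of 3.03 TPM (1.62 to 3.67) to 4.78 TPM (0.467 to 12.2). Its log2 fold change of 0.77 (SE 0.335) had an adjusted p of 0.124 and was not called. Des, the intermediate filament, moved from 1.32 TPM (0.764 to 2.15) to 1.55 TPM (1.07 to 3.23), which is 0.51 on the log2 scale (SE 0.194; adjusted p = 0.0732). Tpm2 had medians of 32.6 TPM (12.3 to 45.3) and 31.2 TPM (22.3 to 51.3), which differ by 0.06 in the fit (log2; SE 0.176; adjusted p = 0.869). Of the 9 mice at 11% O2, 5 lay above every monomer mouse at 21% O2 for Myh11 and 2 below all of them, 3 lay above for Des and 1 for Tpm2. The 2 mice low for Myh11 were of batch 3. Before batch correction, the monomer mice of that batch had at least 2.14 TPM of Myh11, and the lowest monomer mouse at 21% O2 had 1.45 TPM. The lowest monomer mouse at 11% O2 was then in batch 1, at 0.976 TPM, and lay below those at 21% O2.

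Cnn1, the calponin of smooth muscle, had medians of 0.533 TPM (0.277 to 0.713) and 0.928 TPM (0 to 2.76), and 6 of 9 mice at 11% O2 lay above every monomer mouse at 21% O2. When the filter on low counts was dropped, Cnn1 was called at 1.11 on the log2 scale (SE 0.300; adjusted p = 0.0134), and DESeq2 gave 1.12 (adjusted p = 0.0102). Cnn1 was not called without the 3 mice standing apart, at 0.56 (adjusted p = 0.318) with no filter and 0.57 (adjusted p = 0.333) in DESeq2. Tagln had medians of 0.778 TPM (0.361 to 1.03) and 0.942 TPM (0.383 to 1.33), and without the filter its log2 fold change was 0.38 (adjusted p = 0.394). The counts behind both genes were 0 to 31 per mouse.

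In all, 2 of the 5 tested genes were called higher and none lower, where 7.23% of the 14839 tested genes were called in either direction and 4.68% were called higher. To be called, a gene needed an adjusted p (Benjamini-Hochberg) under 0.05 together with a log2 fold change above 0.25 in size. An unadjusted p under 0.05 was reached by 4 of the 5, against 27.7% of all genes. The median log2 fold change of the 5 was 0.67, and that of all genes was -0.00596.

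**Figure D1:**
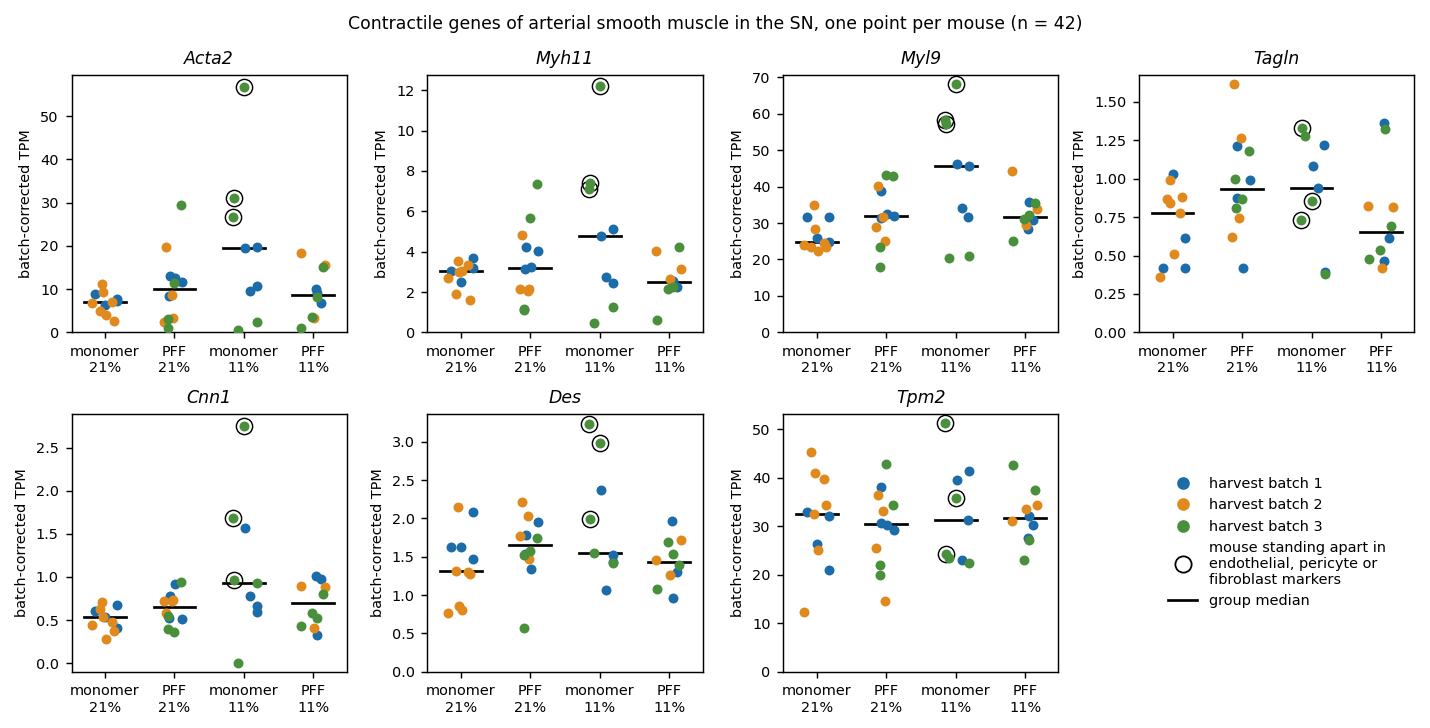
Batch-corrected TPM (vertical axes, linear) of the 7 contractile genes in the 42 analysed mice, by injection and O2; each point is a mouse coloured by harvest batch, lines are group medians, and rings mark the 3 mice standing apart in pericyte, endothelial or fibroblast markers. The ringed monomer mice at 11% O2 are the 3 highest for Myl9 (57.1 to 68.2 TPM) and among the highest for Acta2 (26.7 to 56.8 TPM), while the group medians of Tpm2 lie between 30.4 and 32.6 TPM.

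Without replicates 6, 10 and 11, the log2 fold change of Acta2 fell to 0.59 (adjusted p = 0.491) and that of Myl9 to 0.32 (adjusted p = 0.207). Myh11 was then at -0.02, Des at 0.19 and Tpm2 at -0.04, and none of the 5 was called, where 6.25% of all genes were. Leaving out single mice moved the calls less. Myl9 was called in all 42 such fits, with values of 0.56 to 0.76, and Acta2 in 41, with values of 1.12 to 1.67. The exception was the fit without monomer replicate 10 at 11% O2, in which Acta2 had an adjusted p of 0.0990. Des gained a call in 3 of these fits, those without monomer replicate 3 at 11% O2 and without monomer replicates 2 or 8 at 21% O2 (lowest adjusted p = 0.0330), and Myh11 in 1, without monomer replicate 5 at 11% O2 (adjusted p = 0.0353). In batch 1 alone, where both oxygen levels were harvested together, Acta2 was at 0.64 (adjusted p = 0.350) and Myl9 at 0.44 (adjusted p = 0.174), with 4 mice per group. With a batch term fitted to the uncorrected counts, Myl9 was called (0.65; adjusted p = 0.0269) and Acta2 was not (1.23; adjusted p = 0.0518). When the 6 left-out mice were added to that fit the values were larger, at 1.91 (SE 0.659; adjusted p = 0.0633) for Acta2 and 1.01 (SE 0.351; adjusted p = 0.0657) for Myl9, yet none of the 5 genes was called, where 5.07% of all genes were.

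Within batch 1, Acta2 before correction was 3.90 to 6.47 TPM in monomer mice at 21% O2 and 3.24 to 12.2 TPM at 11% O2. In batch 3 the 5 monomer mice at 11% O2 spanned 6.64 to 52.6 TPM, with a median of 28.9 TPM. The PFF mice of batch 3 spanned 4.09 to 26.9 TPM at 21% O2 and 3.91 to 14.5 TPM at 11% O2. Among the analysed mice, the highest Acta2 levels therefore belonged to a batch that held no monomer mouse at 21% O2.

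**Figure D2:**
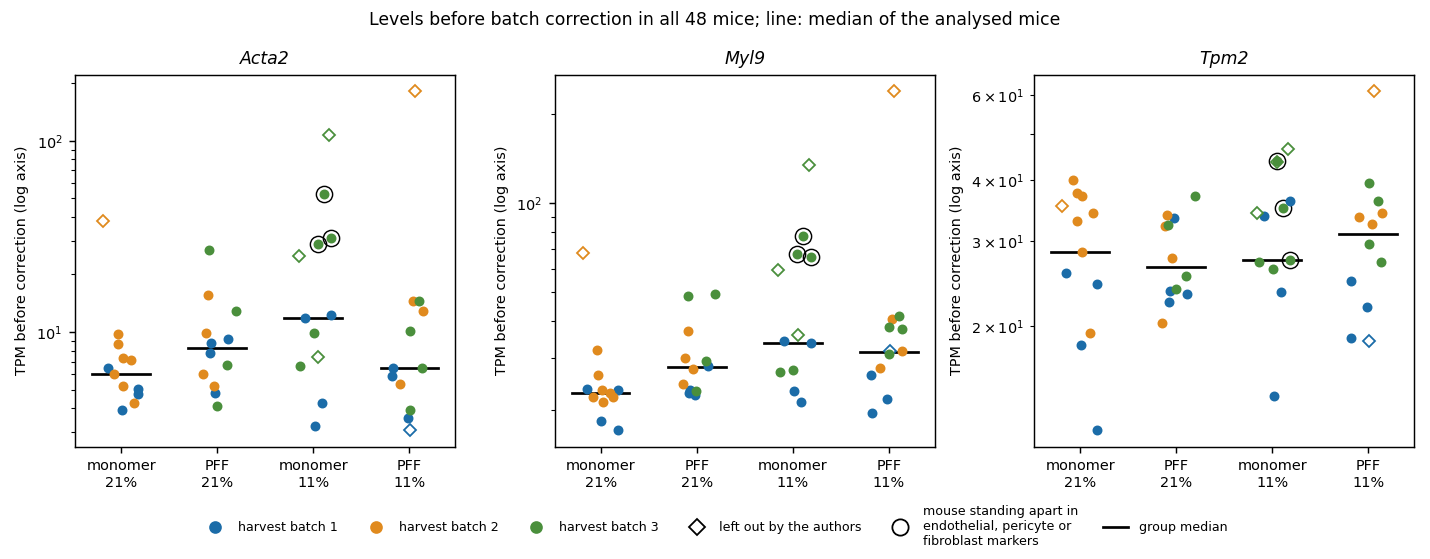
TPM before batch correction (log axes) of Acta2, Myl9 and Tpm2 in all 48 mice by group; filled points are analysed mice coloured by harvest batch, open diamonds are the 6 mice the authors left out, rings mark the 3 analysed mice standing apart and lines are medians of the analysed mice. The highest Acta2 levels, 181.025 and 107 TPM, belong to left-out mice at 11% O2, and the highest analysed mouse is at 52.6 TPM.

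The correction itself moved the myosin and actin genes. ComBat-seq, which the authors used to remove batch differences from the counts, changed Acta2 by more than 2-fold in 8 of the 42 mice and Myh11 in 7. The other 5 genes were changed by more than 2-fold in no mouse. In monomer replicate 5 at 11% O2 the count of Acta2 went from 62 to 5, and in monomer replicate 3 at 11% O2 it went from 29 to 78. The lowest corrected level of Acta2 in the series, 0.577 TPM, is thus a value of 62 counts before correction. On the counts before correction without a batch term, 3 of the 5 genes were called in monomer mice: Acta2 at 1.52 (adjusted p = 0.00415), Myl9 at 0.87 (adjusted p = 0.00230) and Myh11 at 0.95 (adjusted p = 0.0341).

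**Figure D3:**
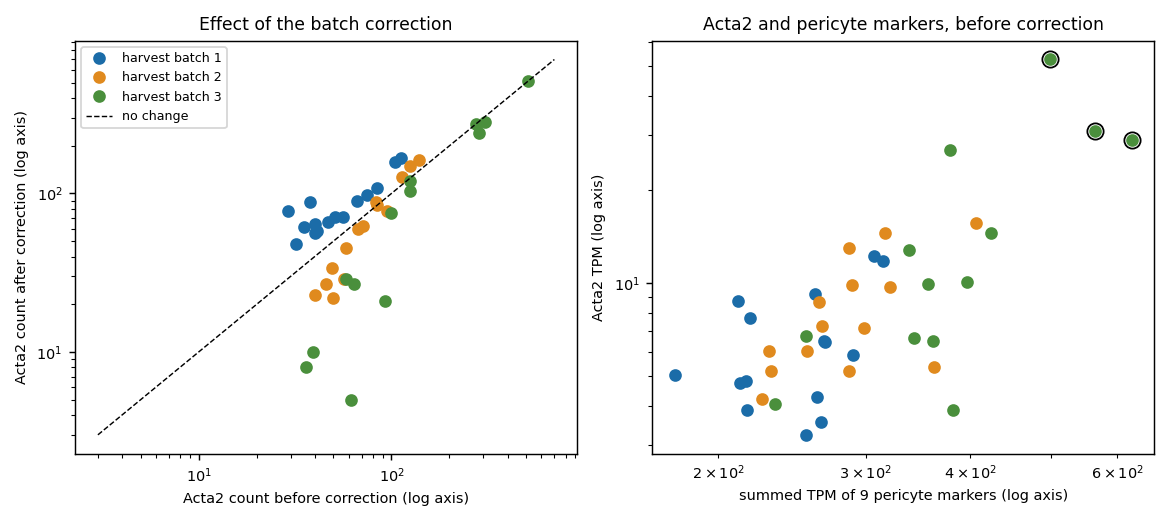
Left, the count of Acta2 after batch correction against the count before it (both log axes, one point per analysed mouse, dashed line for no change); right, Acta2 TPM before correction against the summed TPM of 9 pericyte markers (both log axes), with black rings around the 3 mice standing apart. The count went from 62 to 5 in 1 mouse of batch 3, and the ringed mice have both the highest pericyte sums and Acta2 levels of 28.9 to 52.6 TPM.

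Markers of other vascular cells moved in the same comparison, in which 7.23% of all tested genes were called and 4.68% were called higher. Of 9 pericyte markers, 7 were called higher in monomer mice at 11% O2, among them the potassium channel subunits Abcc9 (0.61) and Kcnj8 (0.57) and the growth factor receptor Pdgfrb (0.51). Of 9 endothelial markers, 7 were called higher, among them Cldn5 (0.74), Pecam1 (0.65) and Esam (0.48). Of 7 arterial endothelial markers, none was called higher and Gkn3 was called lower (-1.24), while 0 of 10 leptomeningeal fibroblast markers were called. All 5 red cell genes were called higher, with Hba-a1 at 1.31.

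The summed pericyte markers spanned 177.5 to 321 TPM before correction in monomer mice at 21% O2, 210.8 to 407 TPM in PFF mice at 21% O2, 255 to 624 TPM in monomer mice at 11% O2 and 266 to 424 TPM in PFF mice at 11% O2. The endothelial sums were 185.5 to 309, 238 to 427, 248 to 626 and 263 to 459 TPM in the same order. Fibroblast sums were 25.9 to 157, 45.5 to 194, 38.6 to 234 and 44.4 to 112 TPM, and no marker of these 3 lists was at 0 in every mouse. Without the 3 mice standing apart, 6.25% of all tested genes were called. Among them were 6 of 9 pericyte markers, 2 of 9 endothelial markers and 5 of 5 red cell genes. Of the 5 contractile genes 0 were called, and whether the lists differ was not tested. Of the 7 arterial endothelial markers, 2 (Gkn3 and Efnb2) were then called lower, and their median went from 0.10 to -0.27. Striated muscle markers summed to 5.11 to 10.7 TPM over all 4 groups, and none of the 2 that could be tested was called. The part of these cell types in the levels of the contractile genes was not tested.

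In PFF mice, 11% O2 was compared with 21% O2 to ask whether the contractile genes respond to hypoxia in the presence of fibrils. None of the 5 tested genes was called, where 0.58% of all genes were called. Acta2 had a lowest, median and highest level of 0.977, 10.1 and 29.4 TPM in PFF mice at 21% O2 and of 1.08, 8.60 and 18.4 TPM in PFF mice at 11% O2. After correction the range at 11% O2 lay inside that at 21% O2. Before correction it did not, with 3.57 to 14.5 TPM at 11% O2 and 4.09 to 26.9 TPM at 21% O2. The log2 fold change was -0.20 (SE 0.450, adjusted p = 0.907). With all 48 mice and batch as a term the direction turned for Acta2 (0.69), Myh11 (0.28) and Des (0.45), with none called.

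Myl9 had medians of 31.9 TPM (18.0 to 43.1) and 31.7 TPM (25.1 to 44.4) in the PFF mice, a difference of 0.01 on the log2 scale (SE 0.155; adjusted p = 0.985). Myh11 (3.18 and 2.52 TPM; -0.38), Des (1.66 and 1.43 TPM; -0.18) and Tpm2 (30.4 and 31.6 TPM; 0.10) likewise had adjusted p-values of 0.727 or more. No gene of the 5 had an unadjusted p under 0.05, against 10.7% of all genes. Their median log2 fold change was -0.18, beside -0.00631 for all genes. DESeq2 called none of the 7. In the same mice 3 of 9 pericyte markers were called higher, Abcc9 (0.58), Higd1b (0.53) and Kcnj8 (0.34). Of 9 endothelial markers, 2 were called higher, Flt1 (0.53) and Cldn5 (0.47). Of 7 arterial endothelial markers, 1 was called, Gkn3, and it was lower. In either direction 0.58% of all genes were called.

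PFF and monomer injections were compared at 21% O2 to read the response to fibrils in room air. Acta2, Myl9, Myh11 and Des had positive log2 fold changes with PFF and Tpm2 a negative one, and none of the 5 was called, where 3.7% of all genes were called. After correction, Acta2 was above the highest monomer mouse (11.2 TPM) in 6 of 12 PFF mice, within the monomer range in 4 and below it in 2. Before correction the monomer mice spanned 3.90 to 9.75 TPM. PFF replicates 1 (8.75 TPM), 2 (9.21 TPM) and 3 (7.73 TPM), above the range after correction, then lay within it. So did replicates 6 (5.21 TPM) and 11 (4.09 TPM), below it after correction. The fitted difference was 0.60 (log2, SE 0.448, adjusted p = 0.445). Myl9 was above the highest monomer mouse in 4 of 12, with 0.29 (SE 0.153; adjusted p = 0.260). Myh11 was at 0.28 (SE 0.320), Des at 0.26 (SE 0.185) and Tpm2 at -0.05 (SE 0.165), with adjusted p-values of 0.652, 0.431 and 0.892. None had an unadjusted p under 0.05, against 22.4% of all genes, and the median of the 5 was 0.28, beside 8.485e-04 for all genes. DESeq2 called none of the 7 here either.

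This comparison and that of oxygen levels in monomer mice share the 11 monomer mice at 21% O2. Set side by side, Acta2 was at 0.60 with PFF and 1.51 with hypoxia, Myl9 at 0.29 and 0.67, Myh11 at 0.28 and 0.77, Des at 0.26 and 0.51, and Tpm2 at -0.05 and 0.06.

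PFF and monomer injections were also compared at 11% O2. The log2 fold changes of Acta2, Myh11, Myl9 and Des were negative, but none passed the test, and neither did any of the 14839 genes (0.0% called in edgeR; 1 gene called in DESeq2). Acta2 was at -1.11 (SE 0.465; unadjusted p = 0.0217), Myh11 at -0.87 (SE 0.346; p = 0.0161), Myl9 at -0.37 (SE 0.163; p = 0.0295), Des at -0.44 (SE 0.198; p = 0.0331) and Tpm2 at -0.01 (SE 0.180; p = 0.966). An unadjusted p under 0.05 was thus reached by 4 of 5, where 3.92% of all genes (581) reached it, and the adjusted p was 0.9997 for each of the 5. The median of the 5 was -0.44, and that of all genes was -6.019e-04.

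The analysed PFF mice at 11% O2, which exclude replicate 5 with the highest Acta2 and Myl9 of all 48 mice, spanned less. Their Acta2 levels ran from 1.08 to 18.4 TPM and those of Myl9 from 25.1 to 44.4 TPM, inside the ranges of the monomer mice at 11% O2 given above. Before correction, Myl9 ran from 19.5 to 41.7 TPM in these PFF mice. It then ran from 21.3 to 77.5 TPM in monomer mice at 11% O2, so its lowest PFF level was not inside. Without the 3 monomer mice standing apart, Acta2 was at -0.19, Myh11 at -0.08, Myl9 at -0.01 and Des at -0.12, and the median of the 5 genes was -0.08.

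Whether hypoxia acted differently with fibrils than without was tested by the interaction of injection and O2, the log2 fold change with 11% O2 in PFF mice less that in monomer mice. The interaction was negative for Acta2 (-1.71, SE 0.646, adjusted p = 0.160), Myh11 (-1.14, adjusted p = 0.210), Myl9 (-0.66, SE 0.224, adjusted p = 0.112) and Des (-0.69, adjusted p = 0.182). It was 0.04 for Tpm2 (adjusted p = 0.960). None was called, where 2.14% of all genes were called, so a difference between the hypoxia responses was not shown for these genes. An unadjusted p under 0.05 was reached by 4 of 5, against 15.4% of all genes, and the median was -0.69, beside -5.657e-04 for all genes.

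The value of Acta2 changed with the table and with the mice included. On the counts before correction without a batch term it was -1.76 and called (adjusted p = 0.0448), and without the 3 mice standing apart it was -0.80 (adjusted p = 0.634). Myl9 was then at -0.30, Myh11 at -0.36 and Des at -0.37. Myl9 was called once, in the fit without monomer replicate 5 at 11% O2.

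**Figure D4:**
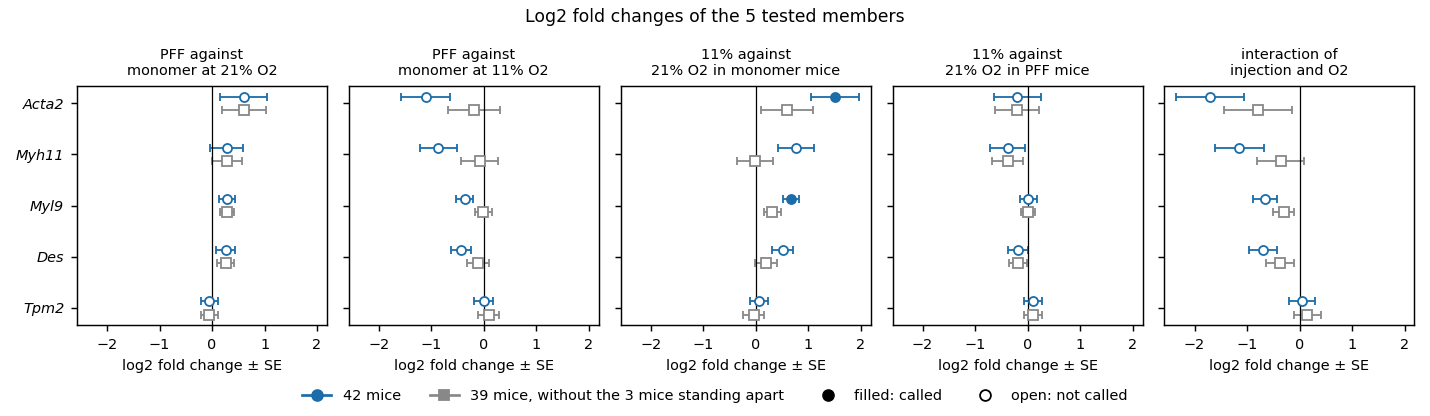
Log2 fold changes with SE (horizontal axes) of the 5 tested contractile genes in the 5 comparisons, from the fit of all 42 mice (blue circles) and of the 39 mice left without the 3 standing apart (grey squares); filled symbols are called. The filled symbols are Acta2 (1.51) and Myl9 (0.67) in monomer mice, and the values without the 3 mice lie nearer 0 in each comparison that includes monomer mice at 11% O2 for Acta2, Myh11, Myl9 and Des.

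Across mice the actin and myosin genes varied together. After group means were taken out of log2(TPM + 1), Acta2 and Myh11 correlated with r = 0.93 (rho = 0.89), Acta2 and Myl9 with r = 0.90 (rho = 0.90) and Myh11 and Myl9 with r = 0.92 (rho = 0.88) over the 42 mice. Their permutation p was 1e-05, the smallest that 100000 permutations can give, and 7e-05 after adjustment over the 21 pairs. The 3 correlations were 0.87 to 0.90 without the 2 mice farthest from the median, 0.88 to 0.91 without the 3 mice standing apart and 0.87 to 0.91 before batch correction. Within single harvest batches they were 0.72 to 0.96.

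Cnn1, Des and Tpm2 followed less closely. Acta2 and Cnn1 had r = 0.65 (rho = 0.54; adjusted permutation p = 0.00063), Myl9 and Des r = 0.62 (rho = 0.61; adjusted p = 0.000577) and Myl9 and Tpm2 r = 0.49 (rho = 0.50; adjusted p = 0.00283). Of the 12 pairs that involve Cnn1, Des or Tpm2 but not Tagln, 11 had an adjusted p under 0.05, the exception being Cnn1 with Tpm2 (r = 0.21). The 6 pairs with Tagln ran from -0.12 to 0.18 and none passed. With a median count of 6 and an uncertain level, Tagln can show little of a relation to the other genes. Within batch 1 alone (15 mice) no pair passed after adjustment, against 2 in batch 2 (14 mice) and 6 in batch 3 (13 mice).

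**Figure D5:**
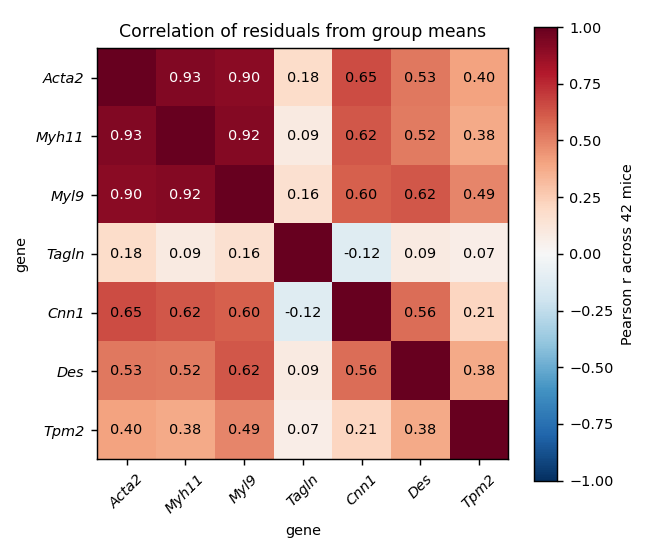
Pearson correlation between the 7 contractile genes across 42 mice, from residuals of log2(TPM + 1) from group means; the colour scale runs from -1 to 1 and each cell gives r. Acta2, Myh11 and Myl9 form the block at 0.90 to 0.93, and the row of Tagln lies between -0.12 and 0.18.

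In the batch-corrected counts, these genes were also among the most variable between mice of the same group. The biological coefficient of variation estimated by edgeR was 72.2% for Acta2, higher than in 99.5% of the tested genes, and 51.8% for Myh11, higher than in 98.8%. It was 26.9% for Tpm2, 23.9% for Myl9 and 22.6% for Des, in the percentiles 94.8, 93.5 and 92.7. These estimates include the 3 mice standing apart and the spread that the correction added or removed. For Acta2 the SD was 6.34 TPM before correction and 8.12 TPM after it in PFF mice at 21% O2. In PFF mice at 11% O2 it was 4.27 and 5.77 TPM, while that of Myh11 was 1.16 and 1.03 TPM. The coefficient before correction was not estimated. In monomer mice the SE of the log2 fold change was accordingly 0.461 for Acta2 and 0.161 for Myl9.

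Of 14508 other genes with a mean of at least 1 TPM, those most like the 7 were ranked by their correlation with the mean of the members' standardised residuals, as a description. The first was Mylk, the kinase that phosphorylates the light chain, with r = 0.84. Sema3g, a semaphorin of arterial endothelium, and Dcn, the fibroblast proteoglycan decorin, followed at 0.79 each, then Olfml2a and Eln, which encodes elastin of the arterial wall, at 0.77 each. Podn (0.76), the endothelial adhesion molecule Pecam1 (0.75), Lrrc32 (0.75), the proteoglycan lumican Lum (0.75) and Plekhg2 (0.75) completed the 10. In monomer mice at 11% O2, Eln was called higher by 0.77 (SE 0.217; adjusted p = 0.0133), Podn by 1.25 (SE 0.299; adjusted p = 0.00387) and Pecam1 by 0.65 (adjusted p = 0.00115). Mylk itself was at 0.26 (adjusted p = 0.187). None of the 10 was called without the 3 mice standing apart, with Eln at 0.33 (adjusted p = 0.321), Podn at 0.71 (adjusted p = 0.162) and Pecam1 at 0.37 (adjusted p = 0.0737).

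Of 13 other genes of the contractile apparatus, 12 could be tested. Of these, 1 was called in monomer mice at 11% O2, where 7.23% of all genes were called and 4.68% were called higher. It was Smtn, which encodes the actin-binding protein smoothelin: its levels of 6.20 to 9.99 TPM (median 8.54) at 21% O2 rose to 8.91 to 15.4 TPM (median 12.8). The groups overlapped between 8.91 and 9.99 TPM, and the log2 fold change was 0.49 (SE 0.085; adjusted p = 9.848e-05). Unlike Acta2 and Myl9, Smtn was still called without the 3 mice standing apart (0.40; adjusted p = 0.00464). Flna, the actin crosslinker filamin A, was called in the interaction (-0.27; adjusted p = 0.0334) but not without those mice (-0.22; adjusted p = 0.146). No other gene of the list was called in any of the 5 comparisons. With the smallest p-values there, Flna was at 0.16 (adjusted p = 0.0350, under the fold threshold) and Csrp1 at 0.12 with PFF at 21% O2, Lmod1 at -0.49 (adjusted p = 0.920) and Smtn at -0.20 with PFF at 11% O2, and Pgm5 at 0.41 and Lmod1 at -0.29 with hypoxia in PFF mice.

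Of 13 genes of channels and contraction signalling, 12 were tested and 2 were called in monomer mice at 11% O2, against the same 4.68% called higher of all genes. Ppp1r14a, the inhibitor of myosin phosphatase known as CPI-17, was higher by 0.32 (SE 0.075; adjusted p = 0.00347) and stayed called without the 3 mice (0.37; adjusted p = 0.00392). The endothelin receptor Ednra was higher by 0.32 (SE 0.088; adjusted p = 0.0122) and was not called without them (adjusted p = 0.0716). In the other 4 comparisons no gene of this list was called. With the smallest p-values, Ppp1r14a was at 0.20 and the calcium channel Cacna1c at -0.17 with PFF at 21% O2, Prkg1 at -0.14 and Cacna1c at -0.11 with PFF at 11% O2, Ednra at 0.16 and Ppp1r12b at -0.08 with hypoxia in PFF mice, and Ppp1r14a at -0.26 and Pln at -0.61 in the interaction.

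Of 11 regulators of the contractile programme, 10 were tested and 4 were called higher in monomer mice at 11% O2, again beside 4.68% of all genes. The TGF-β receptor Tgfbr2 rose by 0.51 (SE 0.097; adjusted p = 0.0003437), from 8.53 to 11.9 TPM at 21% O2 to 11.4 to 18.0 TPM at 11% O2. The Notch ligand Jag1 rose by 0.41 (adjusted p = 0.00295), the Notch target Heyl by 0.42 (adjusted p = 0.00900) and the ligand Tgfb1 by 0.32 (adjusted p = 0.0495). Without the 3 mice standing apart, Tgfbr2, Jag1 and Heyl were called and Tgfb1 was not (adjusted p = 0.129). Heyl also rose with PFF at 21% O2 (0.45; adjusted p = 0.00569) and was called in the interaction (-0.59; adjusted p = 0.0274). With PFF at 11% O2, Smad3 was at -0.11 and Heyl at -0.14, and with hypoxia in PFF mice Tgfbr2 was at 0.29 and Notch3 at 0.10, none of them called.

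The median log2 fold changes in monomer mice at 11% O2 were 0.22 for the apparatus list, 0.03 for the channels and signalling list and 0.17 for the regulators, beside 0.67 for the 5 contractile genes. The same medians were 0.08, 0.04, 0.16 and 0.19 without the 3 mice standing apart. Smooth muscle is not the sole source of many genes on these lists, and most are also expressed in neurons, glia or endothelium.

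Levels of the members were set beside the summed marker TPM of other cell types across the 42 mice, after group means were removed, in 77 relations (11 lists by 7 genes). The relations were chosen after seeing the data. Myl9 correlated with the pericyte sum at r = 0.78 (rho = 0.77), with the endothelial sum at r = 0.76 (rho = 0.74) and with the fibroblast sum at r = 0.72 (rho = 0.74), each with an adjusted permutation p of 0.000154. Acta2 correlated with the pericyte sum at r = 0.68 (rho = 0.67; adjusted permutation p = 0.00022). In batches 1, 2 and 3 that relation of Acta2 was 0.59, 0.51 and 0.86, and without the 2 mice farthest from the median of the sum it was 0.65. The relation of Myl9 was 0.80, 0.63 and 0.92 in these batches with the pericyte sum, 0.88, 0.25 and 0.91 with the endothelial sum and 0.78, 0.65 and 0.83 with the fibroblast sum. Without the 3 mice standing apart it was 0.70, 0.65 and 0.72 with these sums, and that of Acta2 with the pericyte sum was 0.59. Tagln, whose level is uncertain, had no relation past the threshold with any of these 3 sums (r = 0.05 to 0.12).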

How the data were processed

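Bulk RNA-seq of poly(A) RNA (NEBNext Ultra, paired-end) from the SN of 48 mice was processed by the authors. Per the submitters' processing notes and the study's methods, reads were aligned to mm10 with STAR 2.7.5a and counted per gene with featureCounts 2.0.1 (-p -M --primary, no strand option); the notes also list Picard 2.21.9. The authors deposited whole-number counts and TPM of 55385 genes in 48 mice. They then left out 6 mice, applied ComBat-seq, and deposited batch-corrected counts and TPM of 19601 protein-coding genes in 42 mice. Batch-corrected counts are not raw counts, and the correction narrows batch differences before the test, so p-values may be too small.

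For the tests, edgeR 4.0.16 (R 4.3.3) was run on the batch-corrected counts (TMM, filterByExpr by group, quasi-likelihood test, 4 groups in 1 fit, no batch term), with 14839 genes tested and Benjamini-Hochberg adjustment over all of them. DESeq2 1.42.0 and limma 3.58.1 served as alternatives. The SE of a log2 fold change was taken as its size over the root of the F statistic. In simulated counts 184 of 199 changed genes were called. Correlations used residuals of log2(TPM + 1) from group means with 100000 two-sided permutations within groups. Scaling moved the median log2 fold change of all genes by less than 0.1. Each library is a separate mouse per the labels. The paper describes a randomized design with matched pairs of mice. The replicate numbers are not known to mark these pairs, so the pairing could not be used, and all mice were fitted as unpaired. Positions are from GENCODE vM21.

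All 7 members are named, with the companion genes that were called or, where none was, the 2 with the smallest p, the 10 genes most alike, and up to 3 called genes of each marker list. Th, Slc6a3 and Carmn were also named. Members and lists were chosen with earlier results of these data known.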

Additional observations from a re-analysis of the deposited data

Results flagged for a closer look

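The 6 mice that the authors left out are in none of the comparisons above, and their levels of the contractile genes before correction were set against the highest analysed monomer mouse at 21% O2. Of their 42 values, 26 lay above it. The same share was not computed over all genes or in the analysed mice. Acta2, Myh11 and Myl9 also varied together across mice, so these values are not independent and the count is a description. The summed markers of other cell types were also high: by the limits that set the 3 analysed mice apart, 3 of the 6 were over in pericyte, 3 in endothelial and 5 in leptomeningeal fibroblast markers, and their part in these levels was not tested. PFF replicate 5 at 11% O2 was the highest of all 48 mice for Acta2 (181.025 TPM, against 9.75 TPM in the highest monomer mouse at 21% O2), Myh11 (26.6 against 3.16), Myl9 (239 against 32.0), Cnn1 (10.8 against 0.660), Des (12.0 against 2.06) and Tpm2 (61.1 against 40.1), with Tagln at 1.12 TPM against 0.943. Monomer replicate 12 at 11% O2 was also above for each gene, with 107 TPM of Acta2, 20.2 of Myh11, 135 of Myl9, 46.5 of Tpm2, 4.64 of Cnn1, 6.45 of Des and 1.81 of Tagln.

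Monomer replicate 10, which breathed 21% O2, had 38.2 TPM of Acta2, 8.48 of Myh11, 68.1 of Myl9 and 1.87 of Cnn1. Monomer replicate 8 at 11% O2 had 24.9 TPM of Acta2, 7.24 of Myh11, 59.7 of Myl9, 2.43 of Des and 1.31 of Tagln. Monomer replicate 9 at 11% O2 exceeded the limit for Myl9 (35.9 TPM) and Tpm2 (43.6 TPM), and PFF replicate 2 at 11% O2 for Cnn1 alone (0.706 TPM, from 2 counts in a library of 3134594 counts). With the left-out mice included and batch as a covariate, none of the 5 tested genes was called in monomer mice, with Acta2 at 1.91 (adjusted p = 0.0633) and Myl9 at 1.01 (adjusted p = 0.0657) on the log2 scale. Why these mice were high was not tested.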

How the results depend on the processing

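Of the recomputed log2 fold changes of single genes, 1383 kept their direction and side of the threshold, 59 turned in direction, 16 lost a call and 7 gained one. Of the 1383, 1018 came from fits leaving out 1 mouse, which share nearly all mice with the main fit. Another 25 came from dropping the fold threshold, which leaves the estimates unchanged. The count of contractile genes called in monomer mice at 11% O2 (2) became 1 with batch as a covariate on uncorrected counts of 42 mice, with limma on log2(TPM + 0.1) and with limma at a mean TPM of at least 1. It became 0 with batch as a covariate in 48 mice, in batch 1 alone and, as an alternative added after seeing the data, without the 3 mice standing apart, also with no filter or in DESeq2 (0 each). With the replicate block it was 1, Myl9. Same-numbered mice shared only a number: 21 of 54 pairs correlated over 0.1 (median 0.0033). The count ranged from 1 to 3 over the fits leaving out 1 mouse. In the interaction the count was 1 without a batch term on uncorrected counts (also added later) and 0 to 1 leaving out 1 mouse. Correlated pairs (14) numbered 0, 2 and 6 in batches 1, 2 and 3. The cause of these changes was not tested.

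The following log2 fold changes turned in direction. In batch 1 alone, with PFF at 21% O2, Des was -0.084 and Tpm2 0.37; in monomer hypoxia Des was -0.18; in PFF hypoxia Myl9 was -0.12 and Tpm2 -0.25; and in the interaction Tpm2 was -0.67. In batch 2, PFF hypoxia gave Acta2 0.27 and Myh11 0.078. In batch 3, it gave Myl9 -0.044 and Des 0.017, and PFF at 11% O2 gave Tpm2 0.065. With batch as a covariate Tpm2 was 0.045 (42 mice) and 0.065 (48 mice) with PFF at 21% O2 and -0.12 and -0.16 in the interaction, and in 48 mice PFF hypoxia gave Acta2 0.69, Myh11 0.28 and Des 0.45. Without a batch term Tpm2 was 0.0019 with PFF at 21% and 0.021 with PFF at 11% O2. With PFF at 11% O2, limma gave Tpm2 0.015 with a pseudocount of 1, with or without the filter, and 0.017 with 0.1. The replicate block gave Myl9 -0.0034 in PFF hypoxia. Without the 3 mice Myh11 was -0.020 and Tpm2 -0.040 in monomer hypoxia and Tpm2 0.093 with PFF at 11% O2; with no filter and in DESeq2 these were -0.018 and -0.018, -0.040 and -0.038, and 0.088 and 0.090. Leaving out 1 mouse, Tpm2 ranged from -0.14 to 0.016 and from -0.065 to 0.10 with PFF at 21% and 11% O2, from -0.048 to 0.13 in monomer hypoxia and from -0.024 to 0.15 in the interaction; in PFF hypoxia Acta2 ranged from -0.38 to 0.070 and Myl9 from -0.045 to 0.060.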

Other observations

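Tpm2 varied with the markers of dopaminergic neurons. Across the 42 mice, after group means were removed, it correlated with the summed TPM of the 5 dopaminergic neuron markers at r = -0.72 (rho = -0.72; adjusted permutation p = 0.000154 over 77 relations), with -0.80, -0.68 and -0.81 within harvest batches 1, 2 and 3 and -0.69 without the 2 mice farthest from the median. For the other 6 genes the same correlation lay between -0.34 and 0.11, and none passed the threshold, though whether Tpm2 differs from them was not tested. Without the 3 mice standing apart the value of Tpm2 was -0.72, and those of the other 6 lay between -0.51 and 0.05. With the arterial endothelial sum, Tpm2 (r = 0.61, rho = 0.59; adjusted permutation p = 0.000684), Myl9 (r = 0.58, rho = 0.62; adjusted permutation p = 0.00231), Acta2 (r = 0.53, rho = 0.57; adjusted permutation p = 0.00513) and Myh11 (r = 0.53, rho = 0.57; adjusted permutation p = 0.00602) correlated alike in sign, with 0.41 to 0.87 for Tpm2 within batches. These relations were noticed in the data and tested on the same mice. Genes on the summed lists share libraries and depth with Tpm2, and whether the dissected share of each tissue moved with both was not tested.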
